A study of Homo sapiens with 65 samples.

Results

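The genes described here are 10 members of the fibroblast growth factor (FGF) pathway: the ligands FGF8, FGF10, FGF17 and FGF4, the transcription factors ETV4 and ETV5, and the feedback inhibitors SPRY1, SPRY2, SPRY4 and DUSP6. They were taken by symbol from the 58735 genes of the deposited count table. The set was chosen by a measured value: ETV5 passed the significance threshold at day 7.5 in both arms of the study. The day 7.5 contrasts with WT or untreated controls are therefore given as description, without a test. ETV5 is left out of the other counts that use day 7.5 libraries, except in the closing section on processing, where this is stated. All 10 genes were found in the table, and 8 of them had enough reads to be tested in one arm of the study and 7 in the other.

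The samples were left-ventricular cardioids, heart-like aggregates grown from the human induced pluripotent stem cell line WTC-11, and each of the 65 libraries pooled 8 cardioids. Hyaluronan is a long sugar chain between cells, HAS2 is an enzyme that makes it, and hyaluronidase cuts it. In the genotype arm (41 libraries), wild-type lines (WT) were set against clones labelled HAS2-KO (KO) (day 1.5: 5 WT and 6 KO libraries; days 2.5 and 4.5: 6 of each; day 7.5: 3 of each). In the enzyme arm (24 libraries, 3 per group), untreated cardioids were compared with cardioids that received hyaluronidase from day 1.5 (HAse1.5; days 2.5, 4.5 and 7.5) or from day 2.5 (HAse2.5; days 4.5 and 7.5). The WT libraries came from the lines WT, WT_TU, cl43_WT_UT and TNT2, and the KO libraries from the clones cl4 (3 libraries at day 2.5), cl14, cl46 and cl51, of which cl4 was measured repeatedly. The lines WT and WT_TU were also measured repeatedly, as R1 and R2 at days 2.5 and 4.5. At day 7.5 the WT libraries were WT_R1, WT_R2 and WT_TU_R2, and the KO libraries cl4_R2, cl4_R3 and cl14_R1. Repeated libraries of a line or clone were tested as separate replicates. In the enzyme arm the 3 replicates of every group were the lines TNNI1, WT and TNNT2, always given here in that order. The main tests of this arm did not pair libraries by line. All groups went through the same left-ventricular differentiation, in which FGF2 protein was supplied at 5.5 ng/ml from day 0 to day 1.5 and at 1.466 ng/ml from day 1.5 to day 3.5. Every value below was therefore measured in cells that had been given an FGF ligand.

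FGF ligands are secreted proteins that bind receptor tyrosine kinases (FGFR1 to FGFR4) with heparan sulfate as a co-factor. The receptor recruits adaptors that switch on RAS, and RAF, MEK and the kinase ERK follow in a cascade. ERK in turn raises transcription of a small group of genes that are widely read as its output. ETV4 and ETV5 are ETS-family transcription factors of the PEA3 group and are induced in tissues where FGF acts. The Sprouty proteins SPRY1, SPRY2 and SPRY4 dampen signalling between the receptor and ERK, and DUSP6 is a phosphatase that removes the activating phosphates from ERK itself. In the embryo, FGF8, FGF4 and FGF17 are made in the primitive streak and early mesoderm, and FGF8 and FGF10 mark second heart field progenitors, the cells that are added to the heart tube after the early left ventricle has formed.

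Levels are given as CPM, the reads of a gene scaled to a common total of counted reads per library. Library totals ranged from 831062 to 3574843 reads, with a median of 1570954. Reads come from the 3′ end of each transcript, so CPM values of different genes were not compared. A change is called where the adjusted p (edgeR quasi-likelihood test, Benjamini-Hochberg adjustment over all genes of the arm) was under 0.05. Library numbers of the genotype arm ran in 3 blocks, called A (10 libraries), B (11) and C (20) here, and the libraries of block A had a lower share of mitochondrial reads (median 0.127%) than those of B (0.402%) and C (0.333%). The main tests of that arm did not use the block. The WT libraries of day 7.5 belong to blocks A and B, and block B or C holds the KO libraries of that day. HAS2 reads at day 2.5 were 442 to 913 CPM in the KO libraries and 370 to 869 CPM in WT. These reads come from the 3′ end of HAS2 and the labels do not place the edit, so this level does not check the labels. All p-values measure the spread between these libraries, and in pooled cardioids fewer cells of a type and less RNA per cell cannot be told apart.

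Promoter sequences were matched for 5 of the 10 members: FGF10, SPRY1, SPRY2, SPRY4 and DUSP6. The other members had no entry in the promoter set used, so the match follows from the entries and not from a response. The 5 matched members passed the test after early hyaluronidase at day 4.5, described further on. ETV4 and ETV5, which had no entry, were also higher there without passing it. For 4 of the 5, 250 bases before the start are shown here from RefSeq (GRCh38.p14), 5′ to 3′ on the gene's strand. Capitals mark the letters CCGGAA, a core that ETS factors such as ETV4 and ETV5 can bind.
SPRY1 (chr4:123398136-123398385, plus strand): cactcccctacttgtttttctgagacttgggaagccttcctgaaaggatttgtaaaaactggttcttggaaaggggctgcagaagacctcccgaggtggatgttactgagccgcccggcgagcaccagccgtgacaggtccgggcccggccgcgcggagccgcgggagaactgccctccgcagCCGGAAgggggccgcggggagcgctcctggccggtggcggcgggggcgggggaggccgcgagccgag
SPRY2 (chr13:80341127-80341376, minus strand): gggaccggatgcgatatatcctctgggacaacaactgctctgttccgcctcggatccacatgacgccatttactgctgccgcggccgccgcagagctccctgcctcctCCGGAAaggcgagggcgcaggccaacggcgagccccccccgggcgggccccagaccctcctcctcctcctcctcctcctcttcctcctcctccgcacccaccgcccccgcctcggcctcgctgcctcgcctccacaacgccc
SPRY4 (chr5:142324248-142324497, minus strand): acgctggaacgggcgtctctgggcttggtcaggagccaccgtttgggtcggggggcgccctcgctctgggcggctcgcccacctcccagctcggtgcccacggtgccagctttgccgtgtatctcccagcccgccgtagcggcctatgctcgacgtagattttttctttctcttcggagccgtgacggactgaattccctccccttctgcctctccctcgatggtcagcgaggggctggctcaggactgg
DUSP6 (chr12:89352502-89352751, minus strand): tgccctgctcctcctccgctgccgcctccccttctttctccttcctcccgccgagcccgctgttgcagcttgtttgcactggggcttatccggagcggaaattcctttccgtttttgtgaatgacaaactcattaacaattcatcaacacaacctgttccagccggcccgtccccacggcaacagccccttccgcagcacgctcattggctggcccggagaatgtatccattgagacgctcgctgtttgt

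The search covered 300 bases, from 250 before to 50 after each start, on both strands. The 5 members had 8 such windows between them, because SPRY1 and SPRY2 have more than 1 start. CCGGAA occurred in 2 of the 8, at the SPRY1 and SPRY2 starts shown, and in 17.2% of the 35116 windows of all genes. In SPRY1 it begins at position -67 and in SPRY2 at position -142 relative to the start. The longer ETS letters CCGGAAGT, which overlap the core, were in none of the 8 windows and in 4.14% of all. The CArG box, the site of serum response factor at many ERK-responsive genes, was in none of the 8 and in 1.29% of all. Such matches are a description of letters and say nothing of binding.

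The ligand FGF8 (chr10:101770130-101780369, minus strand) was close to undetectable. Its highest count in any library was 5 reads, and 50 of the 65 libraries had 0 reads. FGF4 (chr11:69771016-69775403, minus strand), a ligand of the primitive streak and of pluripotent cells, reached 7 reads at most and was at 0 in 53 of 65 libraries. Neither passed the filter on low counts, so neither was tested, and a difference in them between groups was not detectable at this depth. FGF17, a ligand of the FGF8 subfamily, was the early one that could be measured. At day 1.5 the 5 WT libraries had 79.4, 83.2, 103, 120.3 and 138 CPM, and the 6 KO libraries had a lowest value of 78.5, a median of 109 and a highest value of 170 CPM. These ranges overlap almost fully. At day 2.5 all 12 libraries of the genotype arm were between 0.492 and 5.10 CPM, far below any day 1.5 library, and at day 4.5 all 6 WT libraries were at 0. The fall from day 1.5 to 2.5 in WT was -5.68 on the log2 scale (SE 0.46, edgeR adjusted p = 1.36e-11). In the enzyme arm, which starts at day 2.5, FGF17 was filtered out, with a highest value of 6.13 CPM in an untreated day 2.5 library.

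FGF10 (chr5:44303544-44389706, minus strand), a ligand for FGFR2 in many organs and a second heart field gene, appeared as FGF17 was lost. At day 1.5 the 5 WT libraries had 0.522, 0.560, 0.602, 1.54 and 1.55 CPM. At day 2.5 WT ranged from 4.01 to 27.02 CPM with a median of 18.3, above every day 1.5 library. Since day 1.5 was at the floor of 3 counts or fewer in every library, the rise is given as a bound, at least 13.5-fold higher. WT then held between 2.81 and 23.7 CPM at day 4.5 (median 15.1) and had 17.4, 25.1 and 34.3 CPM at day 7.5. Neither of these later steps passed the test, with log2 changes of -0.37 (SE 0.38) and 1.02 (SE 0.44). The antisense gene FGF10-AS1 overlaps FGF10 on the other strand, and the strand setting of the counting is not given in the sources used here, so its reads may be included.

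**Figure D1:**
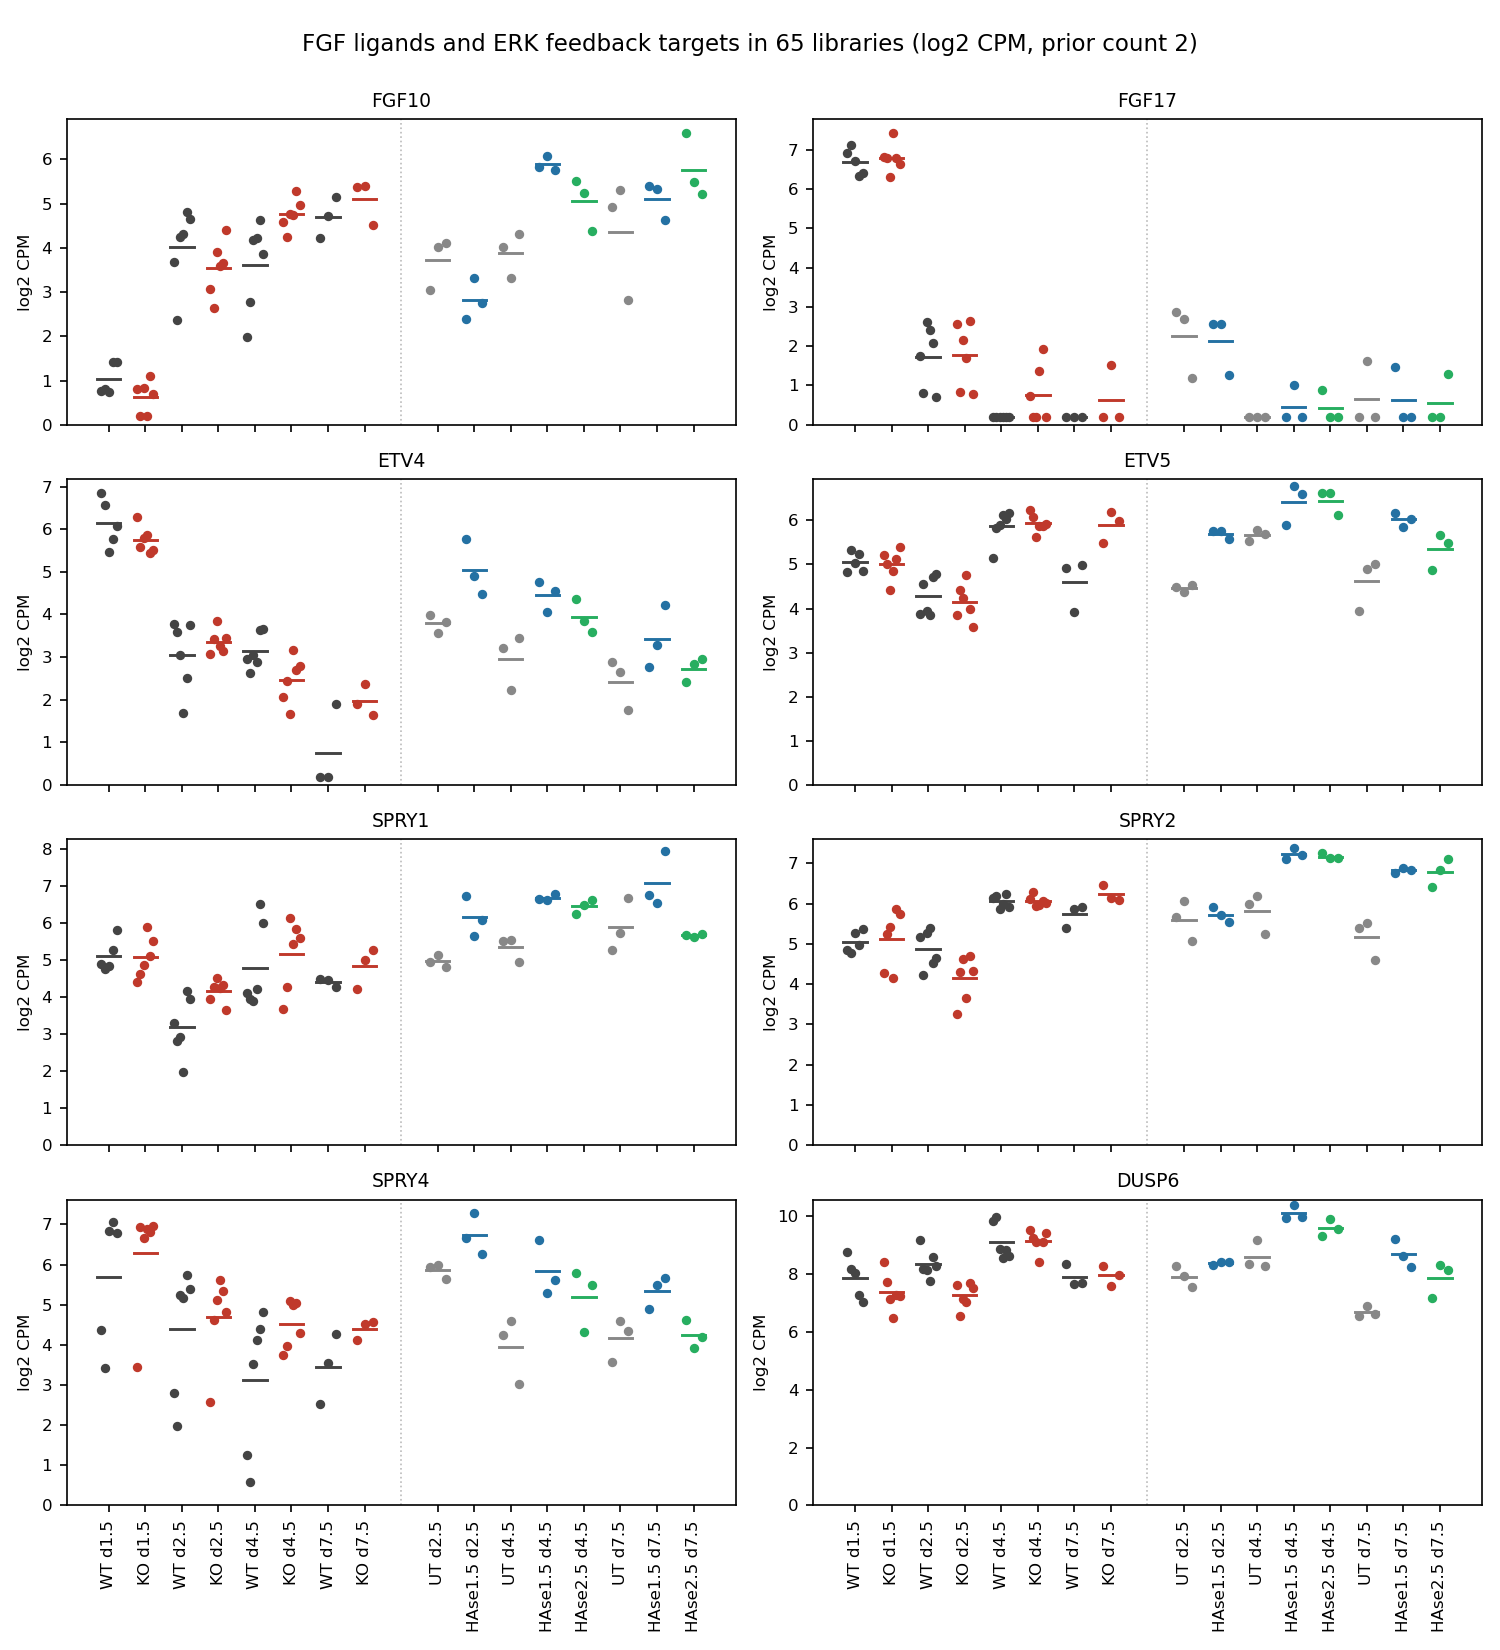
Level of the 8 members tested in at least 1 arm, in log2 CPM with a prior count of 2, by group, with 1 point per library: genotype arm in dark grey (WT) and red (KO), enzyme arm in light grey (untreated, UT), blue (HAse1.5) and green (HAse2.5), with a bar at each group mean. FGF10 climbs from near 0 at day 1.5, ETV4 falls from 42.8 CPM or more in WT at day 1.5 to 12.5 or less at day 2.5, and at day 4.5 the 3 HAse1.5 points lie above the 3 untreated points for each gene but FGF17.

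ETV4 and ETV5 had different time courses although they belong to the same transcription factor group. ETV4 (chr17:43527844-43579620, minus strand) had 42.8, 53.3, 66.2, 93.6 and 113 CPM in WT at day 1.5. It was between 2.09 and 12.5 CPM (median 8.97) at day 2.5, a fall of -3.34 on the log2 scale (SE 0.35, edgeR adjusted p = 5.07e-10) with no overlap of the ranges. ETV4 did not pass the test from day 2.5 to 4.5 (log2 change -0.09, SE 0.35). From day 4.5 (5.04 to 11.6 CPM) to day 7.5 (0, 0 and 2.59 CPM) its log2 change was -3.13 (SE 0.67, lower, edgeR adjusted p = 0.00451). That last call was lost without the day 7.5 library WT_R1 (adjusted p = 0.0749) or WT_R2 (0.0554). ETV4 shares its region with DHX8 on the opposite strand, so the same caution about strand holds.

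ETV5 (chr3:186046308-186110318, minus strand) dipped and came back. In WT it had 27.4, 27.9, 31.3, 36.4 and 39.1 CPM at day 1.5, then 13.3 to 26.6 CPM (median 18.4) at day 2.5, then 34.1 to 70.5 CPM (median 61.3) at day 4.5. The fall to day 2.5 was -0.95 on the log2 scale (SE 0.23, edgeR adjusted p = 0.00157) and the rise to day 4.5 was 1.63 (SE 0.23, adjusted p = 2.29e-07). Untreated cardioids of the enzyme arm made the same step, from 21.5, 19.7 and 21.9 CPM at day 2.5 to 45.0, 54.2 and 50.1 CPM at day 4.5 (log2 change 1.11, SE 0.28, adjusted p = 0.00527). Over all 16 groups, ETV5 ordered from 87.3 ± 16.8 CPM (SD, n = 3) in HAse2.5 at day 4.5 to 17.2 ± 5.51 CPM (n = 6) in KO at day 2.5, and each of the 15 pairs of neighbours in that order overlapped in range. DGKG overlaps ETV5 on the same strand and ETV5-AS1 on the other.

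Among the Sprouty genes, SPRY1 (chr4:123396795-123403760, plus strand) also dipped at day 2.5. WT had 25.9, 27.7, 28.8, 37.4 and 55.8 CPM at day 1.5, and 2.79 to 16.8 CPM (median 7.61) at day 2.5, a fall of -2.10 (log2, SE 0.44, edgeR adjusted p = 0.000256). At day 4.5 WT stood at 13.7 to 91.6 CPM (median 16.9), a rise of 1.95 (SE 0.43, adjusted p = 0.000358). The wide range at day 4.5 followed the library block: the 6 block C libraries, WT and KO together, had 42.0 to 91.6 CPM, and the 6 libraries of blocks A and B had 11.7 to 18.3 CPM. At day 7.5 block C was also above the others, with 31.1 to 37.8 against 17.6 to 21.6 CPM, and there block C holds KO libraries alone, so block and genotype cannot be told apart for SPRY1 at that day. SPRY2 (chr13:80335976-80340951, minus strand) rose in WT from a median of 29.5 CPM (17.6 to 41.2) at day 2.5 to 66.0 CPM (57.3 to 74.5) at day 4.5, a log2 change of 1.21 (SE 0.24, adjusted p = 6.65e-05). Untreated cardioids of the enzyme arm did not pass that test for SPRY2: their values were 49.5, 66.2 and 32.5 CPM at day 2.5 and 62.8, 71.9 and 36.9 CPM at day 4.5 (log2 change 0.10, SE 0.26).

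SPRY4 (chr5:142310427-142326455, minus strand) split by library block at days 1.5 and 2.5. At day 1.5 the 3 block A libraries had 9.63, 9.85 and 19.6 CPM, and the 8 libraries of blocks B and C had 100.6 to 132 CPM. At day 2.5 block A had 2.78 to 5.87 CPM and the other 9 libraries had 23.6 to 52.0 CPM. Block A held both WT and KO libraries, so this split crosses the genotypes. Untreated cardioids of the enzyme arm, which have no block A, fell from 59.8, 62.6 and 48.8 CPM at day 2.5 to 17.7, 23.1 and 6.95 CPM at day 4.5 (log2 change -1.98, SE 0.44, edgeR adjusted p = 0.00215). In WT the same step was -1.21 (SE 0.65, adjusted p = 0.156) in all libraries and passed the test without block A (adjusted p = 0.000185). SPRY4-AS1 lies on the opposite strand of SPRY4, and its part in the block difference was not tested.

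**Figure D2:**
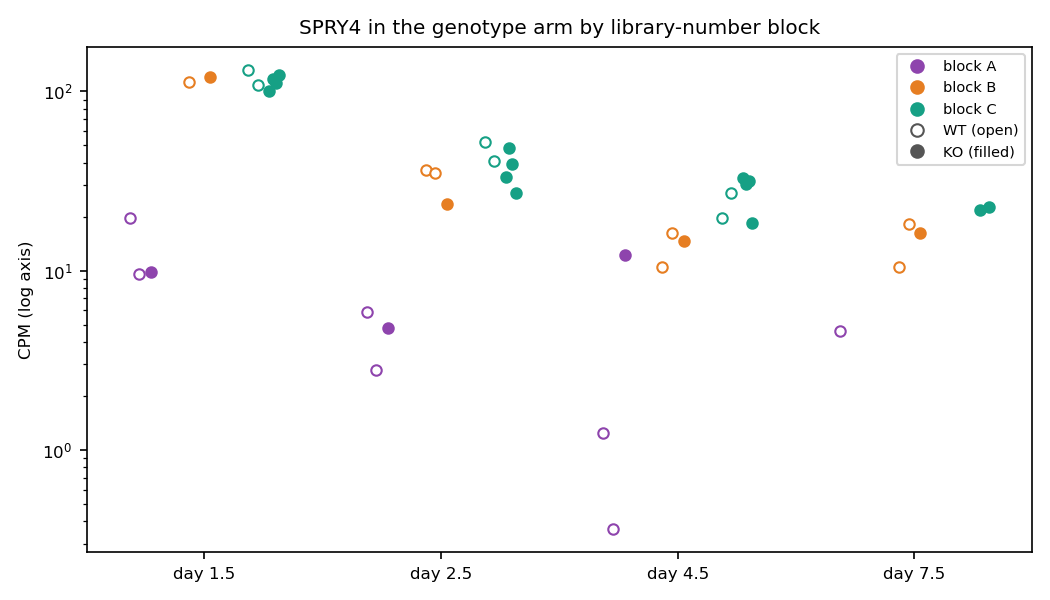
SPRY4 in each library of the genotype arm, in CPM on a log axis, by day and library-number block, with open points for WT and filled points for KO. At days 1.5 and 2.5 all block A points, of both genotypes, lie below every block B and C point.

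DUSP6 (chr12:89347232-89353271, minus strand), the phosphatase that acts on ERK directly, fell late in untreated cardioids. In the enzyme arm untreated cardioids had 307, 242 and 187 CPM at day 2.5, 324, 587 and 308 CPM at day 4.5, and 93.7, 119 and 96.4 CPM at day 7.5. The step from day 4.5 to 7.5 was a fall of -1.85 (log2, SE 0.29, edgeR adjusted p = 0.000511), and all 3 lines showed it. In WT of the genotype arm DUSP6 rose from day 2.5 (215 to 583 CPM, median 301) to day 4.5 (373 to 1008 CPM, median 461) by 0.85 (SE 0.31, adjusted p = 0.0301). The ranges overlap, and the call was lost without block A (adjusted p = 0.13) and when any of 6 of the 12 libraries was left out: WT_TU_R1 (adjusted p = 0.058), WT_R2 (0.0625), WT_TU_R2 (0.0782) or TNT2 (0.0544) of day 2.5, and WT_R1 (0.104) or WT_TU_R1 (0.115) of day 4.5. Its later step in WT, to 330, 203 and 205 CPM at day 7.5, did not pass the test (log2 change -1.27, SE 0.40, adjusted p = 0.0834).

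Steps between days touched a large share of all genes, and the members' counts are read against that. From day 1.5 to 2.5 in WT, 5 of the 8 members tested were called, 1 higher (FGF10) and 4 lower (FGF17, ETV4, ETV5, SPRY1), where 30.1% of all 13797 genes tested were called. From day 2.5 to 4.5, 5 of 8 were called, with ETV5, SPRY1, SPRY2 and DUSP6 higher and FGF17 lower, against 34.5% of all genes. From day 4.5 to 7.5, 1 of the 7 members other than ETV5 was called, ETV4, which was lower, against 2.7%. ETV5 (log2 change -1.21, SE 0.29) shares its day 7.5 libraries with the contrast that chose the set, so its value in that step is a description. In untreated cardioids, 2 of 7 members were called from day 2.5 to 4.5 (ETV5 higher, SPRY4 lower; 23.0% of 12748 genes) and 1 of the 6 other than ETV5 from day 4.5 to 7.5 (DUSP6 lower; 6.39%). ETV5 had a log2 change of -0.87 (SE 0.28) in that last step, where its untreated day 7.5 libraries are again those of the contrast that chose the set.

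The comparison of KO with WT asks whether loss of HAS2 alters these genes. DUSP6 was the member whose ranges over all libraries stood apart, at day 2.5, and the other members' ranges overlapped at days 1.5, 2.5 and 4.5. At day 2.5 the 6 WT libraries had a lowest DUSP6 value of 215, a median of 301 and a highest value of 583 CPM, and the 6 KO libraries had 92.9, 163 and 208 CPM. Every KO library was below every WT library, a pattern that 0.645% of all genes tested showed in this direction. The log2 change was -1.18 (SE 0.32), and with an adjusted p of 0.0588 from edgeR it just missed the threshold. The mean of the KO libraries was 0.447 of that of WT in block A (1 KO and 2 WT libraries), 0.374 in block B (1 and 2) and 0.473 in block C (4 and 2), so DUSP6 was lower in KO in each. In block C alone the adjusted p was 4.99e-05, and without block A it was 0.0272. It also passed with DESeq2 (adjusted p = 0.0188), with the day 2.5 groups fitted alone (0.0243) and without the WT library WT_TU_R2 (0.0367). At day 1.5 DUSP6 was 131 to 440 CPM in WT and 88.7 to 342 CPM in KO, and at day 4.5 373 to 1008 and 340 to 731 CPM. The ranges over all libraries thus overlapped, but they also hold a split by block. Block A, with both genotypes, had 288 to 440 CPM at day 1.5, and blocks B and C had 88.7 to 262 CPM. At day 4.5 these were 731 to 1008 and 340 to 679 CPM. The KO mean in blocks A, B and C was 0.941, 0.802 and 0.942 of WT at day 1.5, and 0.761, 1.46 and 1.24 at day 4.5.

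**Figure D3:**
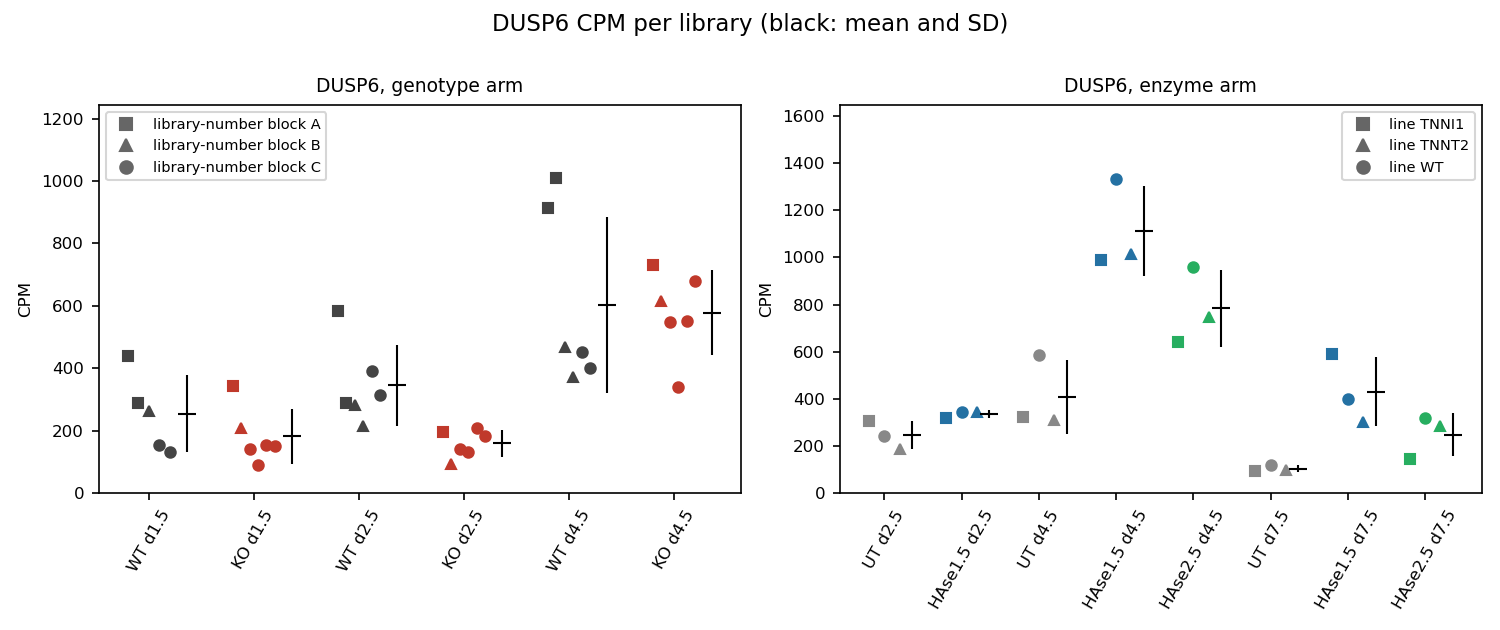
DUSP6 in each library, in CPM on a linear axis, by day, for the genotype arm on the left (point shapes mark the library-number blocks) and the enzyme arm on the right (shapes mark the lines), with black marks for mean and SD. At day 2.5 the 6 KO points (92.9 to 208 CPM) lie below the 6 WT points (215 to 583 CPM), and at day 4.5 the HAse1.5 points (987 to 1334 CPM) lie above the untreated points (308 to 587 CPM).

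Of the 8 members tested, 0 were called between KO and WT at day 1.5, where 0.0% of all genes were called, 0 at day 2.5 (0.993% of all genes) and 0 at day 4.5 (3.74%). At an unadjusted p under 0.05 edgeR gave 0, 2 (SPRY2, DUSP6) and 3 (FGF10, FGF17, ETV4) members at these days. Of all 13797 genes tested, 591, 1450 and 2631 were under it at the same days. DESeq2 called 0, 1 (DUSP6) and 0 members. The median log2 change of the 8 was -0.05, -0.07 and 0.06, beside 0.00, 0.01 and -0.03 over all genes. SPRY2 at day 2.5 had a lowest value of 17.6, a median of 29.5 and a highest value of 41.2 CPM in WT and 8.42, 18.7 and 24.9 CPM in KO (log2 change -0.74, SE 0.25, adjusted p = 0.175). FGF10 at day 4.5 had 2.81, 15.1 and 23.7 CPM in WT and 17.7, 25.9 and 37.7 CPM in KO (log2 change 0.98, SE 0.37, adjusted p = 0.132). ETV4 at day 4.5 had 5.038 to 11.55 CPM in WT and 2.015 to 7.83 CPM in KO. These ranges overlap, and none of SPRY2, FGF10 and ETV4 passed the test. Within each block at day 4.5, the KO libraries lay below the WT libraries for ETV4 and above them for FGF10. The KO means in blocks A, B and C were 0.5255, 0.6372 and 0.4618 of WT for ETV4, and 5.334, 1.028 and 1.616 for FGF10. Blocks A and B hold 1 KO and 2 WT libraries each at that day, so a split within them rests on few libraries. For FGF10 in block B the KO library had 17.72 CPM and the WT libraries 16.93 and 17.53 CPM. The other members tested did not show a split of the same direction in each block. How many of all genes did was not counted, so no effect of genotype is read from it. ETV5 at day 4.5 was almost level, with medians of 61.3 CPM in WT and 58.4 CPM in KO. Whether the difference between KO and WT changed from day 2.5 to 4.5 was tested directly, and 0 of 8 members were called (0.609% of all genes). At an unadjusted p under 0.05 there were 3 members and 1175 of all 13797 genes tested, and DESeq2 called 0 members. For DUSP6 that change was 1.03 (SE 0.44, adjusted p = 0.454). This result changed with the library block. With the block in the fit 2 members were called, DUSP6 (1.10, adjusted p = 0.0341) and FGF10 (1.69, adjusted p = 0.0172). Without block A DUSP6 alone was called (1.31, adjusted p = 0.0479). The 0.609% belongs to the main fit, and the share of all genes called in these other fits is not given here.

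Cell type markers moved with these comparisons. At day 2.5 the summed level of 9 cardiomyocyte markers was 54.2 to 85.1 CPM in KO and 110 to 283 CPM in WT, with 4 of the 9 called lower. That of 8 primitive streak and nascent mesoderm markers was 152 to 239 CPM in KO and 54.6 to 133 CPM in WT, with 3 of the 7 tested called higher. Of 2 defining streak markers, MSGN1 was at the floor in both WT and KO at day 2.5, and TBXT was at the floor in WT alone. At day 4.5 the cardiomyocyte sum was 4953 to 15880 CPM in KO and 13200 to 26220 CPM in WT, with 4 of 9 called lower and none at the floor. Of the 6 cardiac progenitor markers, PDGFRA and MEF2C were called higher and HAND1 lower in KO at that day. The second heart field markers summed to 58.9 to 207 CPM in KO and 20.2 to 123 CPM in WT, and ISL1 was the 1 of 4 tested that was called, higher. The part of these markers in the DUSP6, SPRY2, FGF10 and ETV4 values, and in those of FLRT3, DUSP5, IER3, FGF3 and FGF18 given further on, was not tested.

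Early hyaluronidase was followed by higher ETV5 within a day. At day 2.5 HAse1.5 cardioids had 52.9, 52.7 and 46.2 CPM of ETV5 and untreated cardioids 21.5, 19.7 and 21.9 CPM. All 3 lines were higher and the groups did not overlap. The log2 change was 1.22 (SE 0.28, edgeR adjusted p = 0.0214). None of these day 2.5 libraries entered the contrasts that chose the set. The spread in this test was, however, estimated over all libraries of the arm, so the day 7.5 libraries that chose ETV5 took part in it. With the day 2.5 groups fitted alone, which leaves those libraries out, the edgeR adjusted p was 0.0554 and the call was lost. With 3 libraries a group the call was fragile in the main fit as well. It held without the HAse1.5 library of line WT (adjusted p = 0.0458), and leaving out any of the other 5 libraries gave 0.0528 to 0.0983.

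ETV4, SPRY1, SPRY4 and DUSP6 were also above the untreated range in all 3 lines at day 2.5, without passing the test. ETV4 had 53.5, 28.8 and 21.2 CPM against 14.8, 10.7 and 12.9 CPM (log2 change 1.37, adjusted p = 0.135). SPRY1 had 106, 49.5 and 67.5 CPM against 30.1, 34.0 and 26.9 CPM (log2 change 1.26, adjusted p = 0.104). SPRY4 had 100.2, 154 and 76.2 CPM against 59.8, 62.6 and 48.8 CPM (log2 change 0.92, adjusted p = 0.412). The lines did not share an order here: TNNI1 was the highest of the treated libraries for ETV4 and SPRY1, and line WT for SPRY4. For DUSP6 the shift was small, with 318, 346 and 345 CPM against 307, 242 and 187 CPM (log2 change 0.42, adjusted p = 0.749). SPRY2 overlapped (59.0, 51.1 and 45.6 against 49.5, 66.2 and 32.5 CPM). FGF10, the ligand that could be tested in this arm, was the one member with a negative value. It had 4.12, 8.79 and 5.62 CPM against 7.15, 15.2 and 16.3 CPM (log2 change -1.08, adjusted p = 0.644). In all, 1 of 7 members was called at this day, where 1.15% of all genes were called, and 5 of 7 did not overlap and were higher, where 6.79% of all genes were. The primitive streak markers summed to 238 to 502 CPM in HAse1.5 and 72.4 to 132 CPM in untreated cardioids (1 of the 5 tested was called higher). The cardiomyocyte markers summed to 49.3 to 102 CPM in HAse1.5 and 247 to 601 CPM in untreated cardioids, with 1 of 9 called lower. TNNT2, MYH6 and ACTN2 were at the floor in HAse1.5 alone, and MYH7 and NPPA were at the floor in both groups. Of 6 cardiac progenitor markers, TBX5 (log2 change -3.74) and PDGFRA (-2.03) were called lower. The part of these markers in the members' levels was not tested.

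At day 4.5 all 7 members tested were higher after early hyaluronidase, in all 3 lines and without overlap, and 5 of the 7 passed the test. Of all 12748 genes, 3.48% were called in either direction and 12.7% did not overlap and were higher. The median log2 change of the 7 was 1.38, beside 0.02 over all genes. SPRY2 had 137, 166 and 147 CPM against 62.8, 71.9 and 36.9 CPM in untreated cardioids (log2 change 1.31, SE 0.25, edgeR adjusted p = 0.00288). DUSP6 had 987, 1334 and 1016 CPM against 324, 587 and 308 CPM (log2 change 1.38, SE 0.27, adjusted p = 0.00416). These 2 feedback inhibitors kept their calls when any 1 of the 6 libraries was left out, with adjusted p up to 0.0294 for SPRY2 and 0.0397 for DUSP6. HAse1.5 at day 4.5 was the highest of all 16 groups for DUSP6, at 1113 ± 193 CPM (SD, n = 3), and its range did not overlap that of the next group, HAse2.5 at day 4.5 (784 ± 162 CPM).

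SPRY4 had 96.2, 38.0 and 47.7 CPM in HAse1.5 at day 4.5 and 17.7, 23.1 and 6.95 CPM in untreated cardioids (log2 change 1.87, SE 0.44, edgeR adjusted p = 0.0158). The line TNNI1 was the highest by a wide margin. The call was lost without the untreated TNNI1 library (adjusted p = 0.0552), the treated TNNI1 library (0.148) or the untreated TNNT2 library (0.0958), and with the 2 groups fitted alone (0.0719). SPRY1 had 99.3, 98.5 and 111 CPM against 45.0, 46.2 and 29.9 CPM (log2 change 1.27, SE 0.35, adjusted p = 0.0448). FGF10 had 55.9, 66.5 and 53.0 CPM against 15.0, 8.88 and 18.8 CPM (log2 change 1.93, SE 0.49, adjusted p = 0.0263). Treated and untreated values were well apart in both genes, yet both calls lay near the threshold, since leaving out any 1 library gave adjusted p of 0.0704 to 0.196 for SPRY1 and 0.0535 to 0.119 for FGF10. The 2 members that did not pass were ETV4, with 26.1, 15.6 and 22.1 CPM against 8.19, 3.55 and 9.74 CPM (log2 change 1.46, adjusted p = 0.0769), and ETV5, with 58.3, 108 and 94.9 CPM against 45.0, 54.2 and 50.1 CPM (log2 change 0.73, adjusted p = 0.144).

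FGF10 thus stood below the untreated median at day 2.5 and above the untreated range at day 4.5. The change of its difference between those days was 3.01 (log2, SE 0.76), with an edgeR adjusted p of 0.0704, and of 0.0388 with the line as a block. Of the 7 members, 0 were called for such a change (0.706% of all genes) without the block and 1 with it, and DESeq2 called 1. That share is for the fit without the block, and those of the other fits are not given here. An unadjusted p under 0.05 was reached by 3 members (FGF10, SPRY2, DUSP6) and by 1150 of all 12748 genes tested.

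The cardiomyocyte markers moved the other way at day 4.5. Their summed level was 702 to 4811 CPM in HAse1.5 and 9825 to 20690 CPM in untreated cardioids, with 6 of 9 called lower and MYH7 and NPPA at the floor in HAse1.5. The 5 second heart field markers summed to 211 to 468 CPM in HAse1.5 and 53.2 to 106 CPM in untreated cardioids, and ISL1 was the 1 of 3 tested that was called, higher. The part of these cell types in the FGF10, SPRY and DUSP6 values was not tested.

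**Figure D4:**
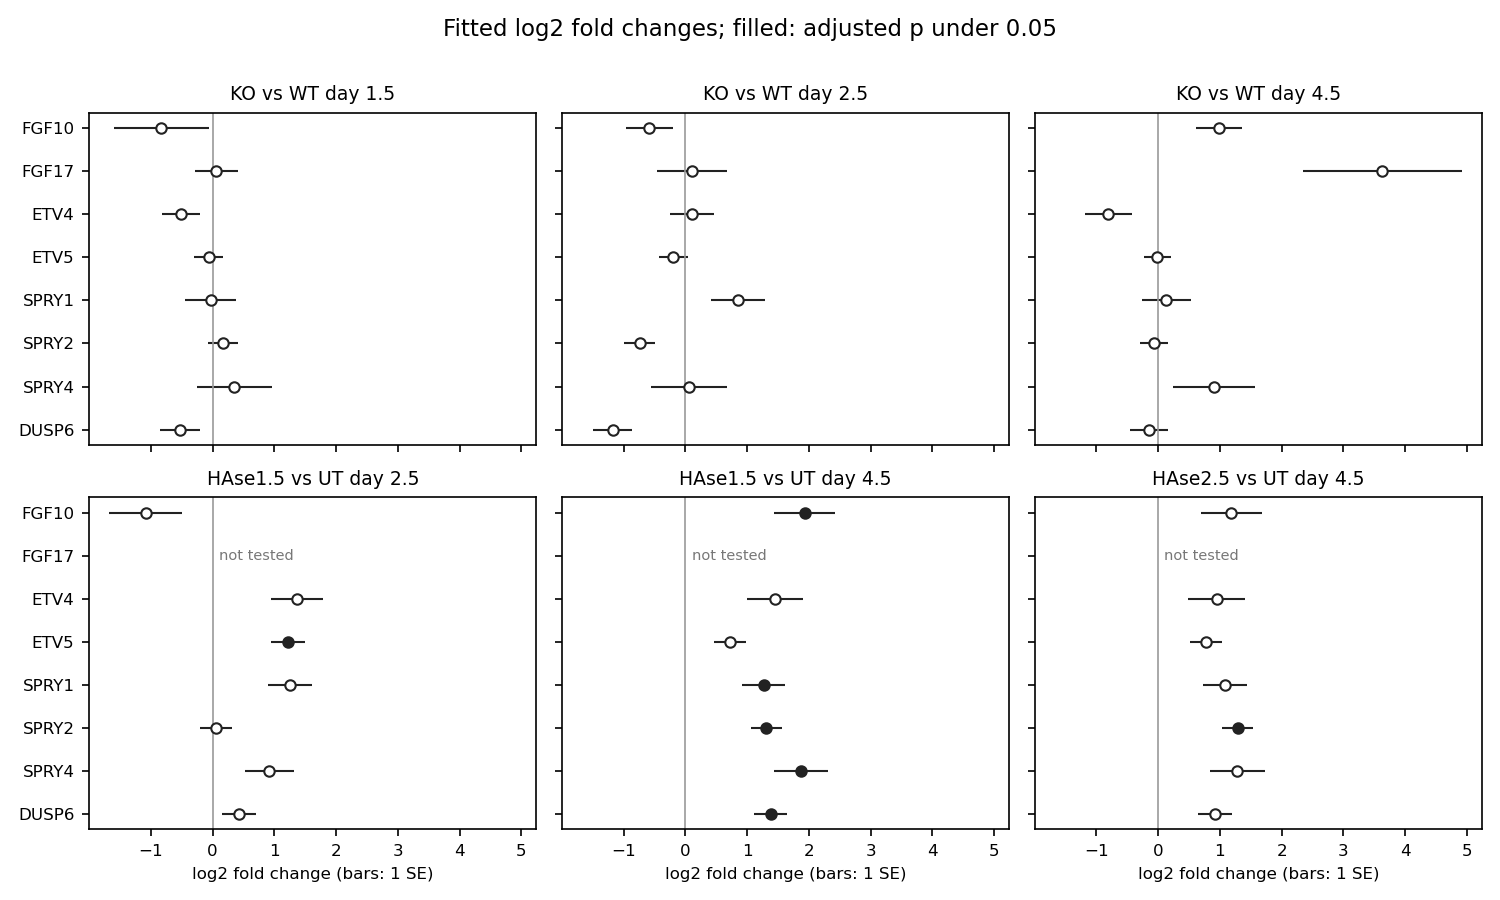
Log2 fold change of each member tested, with bars of 1 SE, for KO against WT and for each hyaluronidase group against untreated cardioids, at days 1.5 to 4.5; filled points had an adjusted p under 0.05. At day 4.5 the HAse1.5 values run from 0.73 (ETV5) to 1.93 (FGF10), and the KO values at day 2.5 reach -1.18 for DUSP6. FGF17 at day 4.5 in KO rests on few reads against WT libraries at 0.

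Hyaluronidase given a day later gave values in the same direction. In HAse2.5 at day 4.5 SPRY2 had 151, 139 and 138 CPM, clear of the untreated 62.8, 71.9 and 36.9 CPM (log2 change 1.29, SE 0.25, edgeR adjusted p = 0.0228). It was the 1 member of 7 called, where 0.22% of all genes were called. Its call held without the untreated library of line WT (adjusted p = 0.033) and was lost without any of the other 5 (0.0565 to 0.194). The other 6 members had positive log2 changes that did not pass the test. DUSP6 had 643, 961 and 748 CPM against 324, 587 and 308 CPM (log2 change 0.92, adjusted p = 0.224), and SPRY1 had 74.8, 89.8 and 98.1 CPM against 45.0, 46.2 and 29.9 CPM (log2 change 1.08, adjusted p = 0.305). ETV5 had 96.3, 97.6 and 68.0 CPM (log2 change 0.78, adjusted p = 0.317) and FGF10 44.6, 36.7 and 19.9 CPM (log2 change 1.19, adjusted p = 0.577). These 5 members and ETV4, 6 of the 7 tested, did not overlap the untreated range and were higher, where 9.07% of all genes were. SPRY4 overlapped, with 54.6, 18.7 and 43.6 CPM against 17.7, 23.1 and 6.95 CPM. Cardiomyocyte markers in HAse2.5 summed to 6513 to 11220 CPM and 0 of 9 were called by edgeR, with 3 at an unadjusted p under 0.05 and 1 called by DESeq2. Of all 12748 genes tested, 895 had an unadjusted p under 0.05 in that comparison.

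The 2 starts of treatment were also compared with each other. At day 4.5, 0 of 7 members were called between HAse1.5 and HAse2.5 by edgeR or DESeq2, where edgeR called 0.361% of all genes. An unadjusted p under 0.05 was found for 0 members and for 1230 of all 12748 genes tested. FGF10, SPRY1 and DUSP6 did not overlap and were higher with the earlier start, where 9.06% of all genes were. At day 7.5, 0 of the 6 members other than ETV5 were called by edgeR (0.00784% of all genes), and DESeq2 called 1, SPRY1. Of these 6, 3 had an unadjusted p under 0.05 (SPRY1, SPRY4, DUSP6), where 719 of all 12748 genes did. SPRY1 had 108, 92.8 and 250 CPM with the earlier start and 50.5, 48.3 and 51.1 CPM with the later start (log2 change 1.54, edgeR adjusted p = 0.178).

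A fit over both arms (65 libraries) set KO against early hyaluronidase, taking the KO effect minus the HAse1.5 effect. The value was negative for 6 of 8 members at day 2.5 and for 7 of 8 at day 4.5, with medians of -0.84 and -1.02 beside -0.01 and 0.00 over all genes. For DUSP6 it was -1.64 (SE 0.50, edgeR adjusted p = 0.412) at day 2.5 and -1.49 (SE 0.50, adjusted p = 0.282) at day 4.5, and for ETV5 -1.45 (SE 0.38, adjusted p = 0.143) at day 2.5. ETV4 (-2.24, SE 0.62, adjusted p = 0.125) and SPRY2 (-1.35, SE 0.37, adjusted p = 0.124) were the largest at day 4.5 by p. Of the 8 members, 0 were called at day 2.5 (0.0925% of all genes) and 0 at day 4.5 (0.271%). At an unadjusted p under 0.05 there were 4 and 3, where 695 and 937 of all 14047 genes tested were under it. DESeq2 called 0 and 1 of the members. With the library-number block and the line in the fit, 2 members were called at day 4.5. The shares of all genes above are for the main fit, and those of DESeq2 and of the block fit are not given here.

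Day 7.5 is the time at which ETV5 led to the choice of these genes, and its values follow without a test. ETV5 had 29.3, 14.0 and 30.4 CPM in WT and 43.6, 71.9 and 61.7 CPM in KO, a log2 change of 1.22 (SE 0.32). The WT values 29.3 and 14.0 are both from line WT, and the KO values 43.6 and 71.9 are both from clone cl4. Within block B, which alone held both genotypes, the KO library had 43.6 CPM and the WT libraries 14.0 and 30.4 CPM. In the enzyme arm ETV5 had 14.3, 28.7 and 31.2 CPM in untreated cardioids, 70.9, 56.8 and 64.1 CPM in HAse1.5 and 28.4, 49.7 and 43.9 CPM in HAse2.5, log2 changes of 1.24 and 0.63. At this day 0.348% of all genes were called between KO and WT, 3.33% between HAse1.5 and untreated and 0.659% between HAse2.5 and untreated.

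Among the feedback inhibitors at day 7.5, DUSP6 had 330, 203 and 205 CPM in WT and 314, 192 and 252 CPM in KO, overlapping, while in the enzyme arm it had 93.7, 119 and 96.4 CPM untreated, 588, 399 and 302 CPM in HAse1.5 and 143, 318 and 284 CPM in HAse2.5. The untreated DUSP6 libraries lay below all treated ones, and their mean was the lowest of all 16 groups, 103 ± 14.1 CPM (SD, n = 3). SPRY2 had 41.1, 57.2 and 59.5 CPM in WT and 87.2, 69.1 and 66.4 CPM in KO (log2 change 0.46), and 41.1, 44.7 and 23.0 CPM untreated, 108, 117 and 112 CPM in HAse1.5 and 83.7, 113 and 136 CPM in HAse2.5. SPRY4 did not overlap between HAse1.5 (28.5, 43.9 and 49.5 CPM) and untreated cardioids (10.7, 23.0 and 19.3 CPM), and in HAse2.5 it was 23.5, 14.1 and 17.03 CPM. ETV5 left out, 1 of 7 members in KO (SPRY2), 3 of 6 in HAse1.5 (SPRY2, SPRY4, DUSP6) and 2 of 6 in HAse2.5 (SPRY2, DUSP6) did not overlap their controls and were higher, where 9.11%, 10.8% and 9.55% of all genes were. The cardiomyocyte markers moved with the treatment at this day as well, with sums of 9215 to 14700 CPM in HAse1.5 and 16280 to 27310 CPM in HAse2.5 against 29260 to 37980 CPM in untreated cardioids, and 4 and 1 of the 9 called lower. NPPA was at the floor in HAse1.5. The second heart field markers summed to 63.3 to 189 CPM in HAse1.5, 20.8 to 51.1 CPM in HAse2.5 and 8.92 to 47.5 CPM in untreated cardioids, and ISL1 was the 1 of 3 tested that was called higher in HAse1.5. In the genotype arm the cardiomyocyte sums were 25430 to 30190 CPM in KO and 31010 to 33430 CPM in WT. The part of these markers in the day 7.5 values was not tested.

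The rest of the pathway was followed with 4 lists: 14 other FGF ligands, 7 receptors and co-receptors, 21 adaptors and ERK cascade components, and 20 other ERK feedback and target genes. In the comparisons of KO or hyaluronidase with their controls at days 1.5, 2.5 and 4.5, the adaptors and cascade had 0 of 20 tested genes called by edgeR or DESeq2. At an unadjusted p under 0.05 there were 3 of them at day 1.5 and 2 at day 2.5 between KO and WT, and 0 in the other comparisons. Of all 13797 genes tested, 591 and 1450 were under it at those days. Of the other ligands, 2 of 6 tested were called, both higher in KO at day 2.5, where 0.993% of all genes were called. FGF3, a ligand of the same subfamily as FGF10, had a lowest value of 1.91, a median of 6.45 and a highest value of 11.1 CPM in KO and 0 to 1.10 CPM in WT (log2 change 3.85, SE 0.82, edgeR adjusted p = 0.011). FGF18, a ligand of the FGF8 subfamily, had 3.83, 9.58 and 24.1 CPM in KO and 0, 1.41 and 5.71 CPM in WT (log2 change 2.56, SE 0.59, adjusted p = 0.0176). The FGF3 call held in each alternative run, and the FGF18 call was lost without block A (adjusted p = 0.102), cl4_R1 (0.0583), cl43_WT_UT (0.0535) or TNT2 (0.0502).

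Among other ERK feedback and target genes, FLRT3, a membrane protein that binds FGF receptors, was higher in KO at day 4.5, with a lowest value of 11.7, a median of 40.5 and a highest value of 66.0 CPM against 2.19, 5.89 and 17.1 CPM in WT (log2 change 2.15, SE 0.41, edgeR adjusted p = 0.000951). Its KO effect differed between days 2.5 and 4.5 (2.87, SE 0.56, adjusted p = 0.00581), and both calls held in each alternative run. The phosphatase DUSP5 (log2 change -1.53, adjusted p = 0.047) and the early response gene IER3 (-1.11, adjusted p = 0.0315) were lower in KO at day 4.5. Both calls depended on single libraries: leaving out any of WT_R1, WT_TU_R1, WT_TU_R2, cl4_R2, cl4_R3, cl14_R1, cl46_R1 or cl51_R1 lost the DUSP5 call (adjusted p up to 0.225), and leaving out any of WT_R1, WT_TU_R1, cl4_R2, cl46_R1 or cl51_R1 lost the IER3 call (up to 0.115). So 3 of 18 tested genes of this list were called at day 4.5, 1 higher and 2 lower, where 3.74% of all genes were called.

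After early hyaluronidase, 1 of the 18 was called at day 2.5, where 1.15% of all genes were, and 1 at day 4.5, where 3.48% were. ETV1, the third factor of the ETV4 and ETV5 group, had 55.1 to 81.7 CPM in HAse1.5 and 10.7 to 38.3 CPM in untreated cardioids at day 2.5 (log2 change 1.43, SE 0.31, edgeR adjusted p = 0.0174). IL17RD, an inhibitor also known as SEF, had 71.4 to 79.2 CPM against 20.2 to 51.9 CPM at day 4.5 (log2 change 1.07, SE 0.30, adjusted p = 0.0443). FGFR1 was the 1 of 5 receptors called at that day, with 171 to 312 CPM against 102 to 150.2 CPM at day 4.5 (log2 change 0.85, SE 0.23, adjusted p = 0.036). Of the 6 libraries, the ETV1 call held without untreated TNNI1 or treated WT, the IL17RD call without untreated TNNI1, and the FGFR1 call without treated WT. Leaving out any other library lost these calls (adjusted p up to 0.142, 0.245 and 0.217). With the later start of treatment, 0 genes of the 4 lists were called at day 4.5 by edgeR or DESeq2. In that comparison 1 receptor and 2 feedback and target genes had an unadjusted p under 0.05, where 895 of all 12748 genes did. IL17RD also differed between the KO and HAse1.5 effects at day 4.5 (-1.52, SE 0.33, adjusted p = 0.0193), a call that was lost without block A (adjusted p = 0.0763) and without any of WT_TU_R1, the treated TNNI1 or TNNT2, or the untreated WT or TNNT2 library (up to 0.167).

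Across the 16 group means of log2 CPM, the members did not form a single pattern. The correlation was 0.85 between ETV5 and SPRY2, 0.80 between ETV4 and SPRY4 and 0.79 between ETV5 and DUSP6, and it was 0.03 between SPRY2 and SPRY4 and -0.68 between FGF10 and ETV4. These are descriptions over 16 points that share lines, days and controls. Of the 12566 genes tested in both arms, those most like ETV5 were OSTM1 (Pearson r 0.90), DPP10 (0.88), C14orf39 (0.86), GOSR2 (0.85) and FBRS (0.85). Those most like DUSP6 were RBSN (0.92), LHX6 (0.91), SORL1 (0.89), RTL5 (0.89) and ATP8B4 (0.87), and those most like FGF10 were ENSG00000280339 (0.97), CYLD (0.96), HAND2-AS1 (0.96), PNISR (0.95) and ZNF862 (0.95).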

How the data were processed

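The deposited table gives raw counts of reads per Ensembl gene, in 65 QuantSeq 3′ libraries, mapped to hg38/GRCh38 and counted with featureCounts of Subread 1.6.2, per the submitters' processing notes. The aligner, the strand setting and any use of molecular identifiers are not given in the sources used here, so floors cover counting error only. Each SE was computed from the log2 change and the F statistic of the edgeR fit, so it includes the spread between libraries. Of its columns, 4 match no listed sample and were not used. Gene positions are from GENCODE 29. Samples were grouped by title, and the blocks A, B and C are runs of library numbers. Counts were filtered (filterByExpr, minimum count 10), TMM-scaled and fitted with edgeR 4.0.16 in R 4.3.3 (robust quasi-likelihood, 1 mean per group over an arm, two-sided F-tests, Benjamini-Hochberg over all genes tested, threshold 0.05); the steps were tested on simulated data. Log2 CPM values used a prior count of 2, and a group with no library above 3 counts is at the floor. Replicate counts (115 pairs) differed by 2.07 to 74.5 times counting error, so no 2 libraries were 1 library deposited again.

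The members and lists were chosen with earlier results of these data known. All members are named, and of each pathway list up to 3 called genes per comparison with the smallest adjusted p. In the enzyme arm a replicate number is a line (15 of 21 pairs of the same line and day had residual r over 0.1, lowest -0.099), so the line pairs the samples. The main tests of that arm did not use this pairing, and the line was fitted as an alternative only. Alternatives were DESeq2 1.42.0, other size factors, no filter, the groups compared alone, blocks and leaving out each library. For DESeq2 the count over all genes is given for KO against WT at day 2.5 alone.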

Additional observations from a re-analysis of the deposited data

Results flagged for a closer look

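In 49 sets of a member and a group of 5 or 6 libraries, 3 libraries lay far from the rest of their group by Dixon's criterion, which chance meets in about 1 in 20 groups. FGF17 at day 1.5 had 170 CPM in the KO library cl14_R1, where the other 5 KO libraries had 78.5 to 112 CPM. SPRY4 at day 1.5 had 9.85 CPM in the KO library cl4_R1, which is the block A library of that group, where the other 5 had 100.6 to 123 CPM. FGF4 at day 2.5 had 2.55 CPM in the KO library cl4_R2, where the other 5 had 0 to 0.638 CPM, a difference of a few reads.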

How the results depend on the processing

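Counts of members called were recomputed under each alternative. For KO against WT at day 2.5 the count of 0 became 1 (DUSP6) with DESeq2, with the library-number block, without block A (an alternative chosen after seeing the data), with block C alone and with the groups compared alone, and leaving out 1 library gave 0 to 1. Over all genes, the 137 calls there became 232 with DESeq2, 292 with the block, 261 without block A and 535 with block C alone. For the other comparisons the calls over all genes under each alternative are not given, so those member counts have no background beside them. For the WT step from day 4.5 to 7.5 the count of 2 (ETV4 and ETV5) became 4 with the library-number block and 0 with the groups alone, and 0 to 2 without 1 library. Unlike the counts given earlier, those here that use day 7.5 libraries include ETV5. Its day 7.5 values chose the set, so these counts describe the processing and are no test of ETV5. For the KO effect at day 4.5 minus day 2.5, the count of 0 became 2 with the block and 1 without block A. For HAse1.5 at day 2.5 the count of 1 became 2 without the filter or with DESeq2 and 0 with the groups alone, and 0 to 2 without 1 library. For HAse1.5 at day 4.5 the count of 5 became 2 to 3 without 1 library. For HAse2.5 at day 4.5 the count of 1 became 4 without the filter and 2 with the groups alone, and 0 to 1 without 1 library. For HAse1.5 against HAse2.5 at day 7.5, the count of 0 became 2 without the filter and 1 with DESeq2. The untreated steps gave 4 in place of 2 (day 2.5 to 4.5, no filter) and 2 in place of 1 (day 4.5 to 7.5, line as replicate block; 1 to 2 without 1 library). For the HAse1.5 effect at day 4.5 minus day 2.5, the count of 0 became 3 without the filter and 1 with DESeq2, with the groups alone or with the line as block, and 0 to 1 without 1 library. The KO effect minus the HAse1.5 effect gave 1 in place of 0 at day 2.5 (no filter), and in place of 0 at day 4.5 it gave 2 without the filter, 1 with DESeq2 or without block A, and 2 with block and line. The causes were not tested. Of 1732 recomputed single-gene values, 1544 kept their direction and side of the threshold, 142 no longer passed, 46 newly passed and 0 reversed. In the genotype arm a shared number is not shown to pair libraries (9 of 32 pairs with residual r over 0.1, lowest -0.421), and the block fit changed no member count beyond those above. WT and KO libraries of the same block tended to be more alike. Their residual r was 0.146 to 0.798 at day 1.5, 0.016 to 0.26 at day 2.5 and 0.017 to 0.379 at day 4.5. Between different blocks it was -0.678 to 0.29, -0.231 to 0.103 and -0.459 to 0.137. At day 7.5 the same-block values were -0.074 and 0.002. The main tests of this arm did not use the block. Depth limits FGF8 and FGF4, at 7 reads or fewer in every library.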

Other observations

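The receptors and other ligands also changed over the days of differentiation. FGFR1, the main receptor of early mesoderm, had 108 to 174 CPM in WT at day 1.5, 276 to 355 CPM at day 2.5 and 68.7 to 136 CPM at day 4.5, with no overlap between neighbouring days up to day 2.5 or from there to day 4.5 (log2 changes 0.94 and -1.65, edgeR adjusted p = 7.36e-06 and 1.12e-11). Untreated cardioids of the enzyme arm had 302 to 340 CPM at day 2.5 and 102 to 150.2 CPM at day 4.5 (log2 change -1.38, adjusted p = 0.000113). FGFR2 and FGFR3 rose with FGFR1 from day 1.5 to 2.5 (log2 changes 1.62 and 1.38), 3 of the 5 receptors tested, and 4 of 5 fell from day 2.5 to 4.5, where 34.5% of all genes were called.

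FGF7 and FGF9 appeared at day 4.5. FGF7, a ligand of the same subfamily as FGF10, was at 0 in every WT and untreated library at day 2.5 and had 4.69 to 15.8 CPM in WT and 8.35 to 20.4 CPM in untreated cardioids at day 4.5. FGF9 had 0 to 0.983 CPM in WT at day 2.5 and 3.24 to 16.3 CPM at day 4.5. Both were called in both arms (edgeR adjusted p for FGF7 1.25e-08 in WT and 0.000198 in untreated cardioids, and for FGF9 4.25e-08 and 0.00249).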
